A study of Mus musculus with 6 samples.

Results

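Cytosolic ribosomal protein genes encode the protein parts of the ribosome that translates nuclear messenger RNA. The set was taken from the array annotation: symbols that start with Rpl or Rps and a digit, together with Rplp0, Rplp1, Rplp2 and Rpsa, read only from probe sets that list a single gene, without the S6 kinases (Rps6k) and pseudogenes. The rule found 50 genes among 18193 genes on the array. It found no such probe set for Rplp1. Of the 50 genes, 43 encode subunit proteins of the ribosome and 7 are paralogues or partners (Rpl3l, Rpl7l1, Rpl22l1, Rpl39l, Rps4l, Rps27l and Rps19bp1, which is no ribosomal subunit but a protein named for its binding to Rps19). A further 31 ribosomal protein symbols occurred only in probe sets that also list pseudogenes or other genes and are described below as a group without names. Such probe sets carried 46 ribosomal protein symbols in all, so some members also had probe sets that the rule left out.

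The 6 arrays measured RNA of bone marrow cells sorted as lineage-negative, cKit-positive and Sca1-negative, called myeloerythroid progenitors in the labels, from mice 6 weeks of age. All mice carried Mx1-cre and were given polyIC 3 times, every other day, in doses of 20 mcg/g, and cells were taken 1 week after the final dose. The Mx1 promoter answers to the interferon that polyIC evokes, so the recombinase is made in blood cells and in other tissues that respond to interferon. The ICN2-positive group (Rosa-lsl-ICN2 Mx1-cre+, 3 arrays, all male) also carried a Rosa26 transgene for ICN2, the intracellular and constantly active part of Notch2, behind a stop cassette that the recombinase removes. The ICN2-negative group (Mx1-cre+ littermates, 3 arrays, all female) lacked it. Because each genotype came with a single sex, effects of the 2 cannot be told apart. The labels do not say whether the arrays of a group came from separate animals, and p-values therefore reflect array-to-array spread that could be technical.

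The ribosome has a large 60S subunit, which forms peptide bonds, and a small 40S subunit, which decodes the message. Their proteins are made in matched amounts. Most of their messages begin with a run of pyrimidines, the terminal oligopyrimidine (TOP) tract, through which the growth kinase mTOR regulates their translation. In the bone marrow ribosomal protein dosage matters most in erythroid progenitors: loss of one copy of RPS19, and of several other members, causes Diamond-Blackfan anaemia, and reduced RPS14 accounts for the anaemia of the 5q deletion syndrome. Messenger RNA level, the quantity measured here, does not report the rate of ribosome production or translation.

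The sequences around the transcription start show the pyrimidine run that many members share. Of the 50 genes, 44 had a start in the RefSeq promoter table (GRCm38.p6). Each line below gives 15 bases before and 15 bases from the annotated start onward, on the strand of the gene; capitals mark the longest unbroken run of C and T. The first 7 are subunit genes of both subunits whose messages did not pass the test between the groups, and the last 3 are paralogues that are compared with their partners further down.
Rpl35, chr2:39005117-39005146, minus strand: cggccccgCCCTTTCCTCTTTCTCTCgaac
Rpl38, chr11:114668565-114668594, plus strand: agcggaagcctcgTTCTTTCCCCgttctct
Rpl27a, chr7:109519180-109519209, plus strand: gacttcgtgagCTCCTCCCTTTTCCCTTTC
Rps10, chr17:27635230-27635259, minus strand: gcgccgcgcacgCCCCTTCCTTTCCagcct
Rps6, chr4:86857353-86857382, minus strand: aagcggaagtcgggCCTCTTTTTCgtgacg
Rps18, chr17:33955651-33955680, minus strand: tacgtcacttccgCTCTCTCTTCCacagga
Rplp2, chr7:141447636-141447665, plus strand: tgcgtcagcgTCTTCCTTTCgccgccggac
Rpl22l1, chr3:28805493-28805522, plus strand: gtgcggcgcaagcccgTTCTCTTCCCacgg
Rpl39l, chr16:10170213-10170242, plus strand: ctcccaggCCTTTCCggatttccggtggtc
Rps27l, chr9:66946071-66946100, plus strand: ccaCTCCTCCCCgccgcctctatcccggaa

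A run of at least 8 pyrimidines within 30 bases of the start, on the strand of the gene, was present in 25 of 52 member windows (48.1%) and in 22.9% of all 32851 windows in the table. The run was 19 bases long in Rpl27a, 18 in Rpl35 and 7 in the paralogue Rpl39l. Rps27l has a further annotated start that is not printed, where the longest run was 4 bases, against 9 at the printed start. The printed runs of Rps27l and Rpl39l end before the annotated start. In the full windows of 300 bases, the letters CGGAAG, the core that ETS factors bind, were found on either strand in 32 of 52 member windows (61.5%) against 16.9% of all windows. The letters AAGATGGCG, of the kind bound by YY1, were found in 3 (5.77%, against 1.40%), and the E-box CACGTG, bound by Myc, in 5 (9.62%, against 7.15%). The letters TGGGAA, the core bound by RBPJ, through which the Notch intracellular domain acts on DNA, were found in 13 (25.0%) against 25.6% of all windows. RefSeq starts can be off by several bases, some genes have several windows, and a match is a description of letters only.

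No cytosolic ribosomal protein gene passed the test between ICN2-positive and ICN2-negative cells. Of the 50 genes, 49 lay above the limit set for dim probe sets, the 40th percentile of intensity on at least 3 of 6 arrays, and were tested. None was higher and none lower at an adjusted p of 0.05 in limma, against 4.36% of all 12837 genes tested (2.59% higher and 1.78% lower); at an unadjusted p of 0.05 there were 2 (Rpl3l and Rps19bp1), against 27.4% of all genes. The median difference, ICN2-positive minus ICN2-negative, was -0.0035 on the log2 scale over the 49 genes and 0.02 over all genes. The median size of a difference, regardless of sign, was 0.015 for the members and 0.18 for all genes tested. A difference smaller than 0.1 was found in 41 of 49 members (83.7%) and in 31.7% of all genes. The 95% interval of the difference in limma lay within a 1.2-fold change either way for 39 of 49 members. The groups did not overlap for 2 members that were higher and 6 that were lower in ICN2-positive cells, shares below those of all genes, 20.7% and 16.9%.

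**Figure D1:**
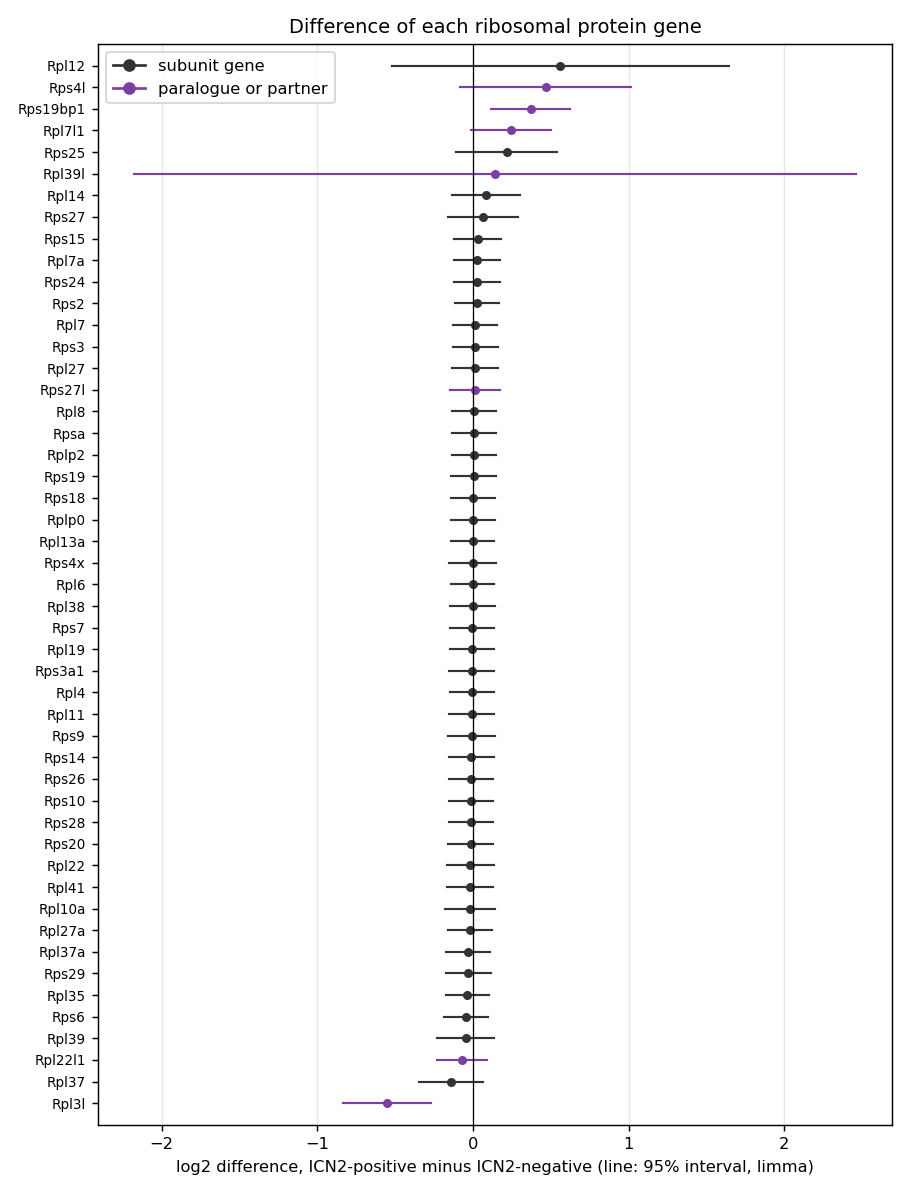
Difference of each of the 49 tested ribosomal protein genes, ICN2-positive minus ICN2-negative on the log2 scale, with the 95% interval of the limma fit as a line; black marks subunit genes and purple the paralogues and partners. Most points lie within 0.1 of zero, and the widest interval is that of Rpl39l.

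Most members were among the brightest genes of the array. Their mean log2 intensity over the 6 arrays lay above 13 for 37 of the 49, a limit chosen after the values were seen, and 35 members stood among the 100 brightest genes. The brightest was Rpl41, a very short basic protein of the large subunit, at 14.50, 14.54 and 14.47 on the ICN2-negative arrays and 14.49, 14.47 and 14.50 on the ICN2-positive arrays. Leaving out control probe sets, the highest intensity on any array was 14.54, that of Rpl41 on ICN2-negative replicate 2. Brightness depends on the probes as well as on the RNA, so this is no order of abundance. How far so high a signal still follows the amount of RNA was not tested.

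Replicates of the bright members lay very close together. The arrays were normalized to a common distribution, with a 99th percentile of 13.35 to 13.36 on all 6. How much of the closeness at the bright end comes from this was not tested. The median standard deviation within groups was 0.022 on the log2 scale for the 37 bright members, 0.13 for the 12 dimmer ones and 0.15 for all genes tested. For the 411 other genes above 13 it was 0.043, with a median size of difference of 0.059 against 0.012 for the bright members; 1 of these 411 genes passed the test. The median standard error that limma gave the members, 0.059, was larger than the 0.022 that their own spread would give, because the fit draws each gene's spread toward that of all genes. With a spread that follows brightness (an alternative fit), the median standard error was 0.024, and no bright member passed.

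**Figure D2:**
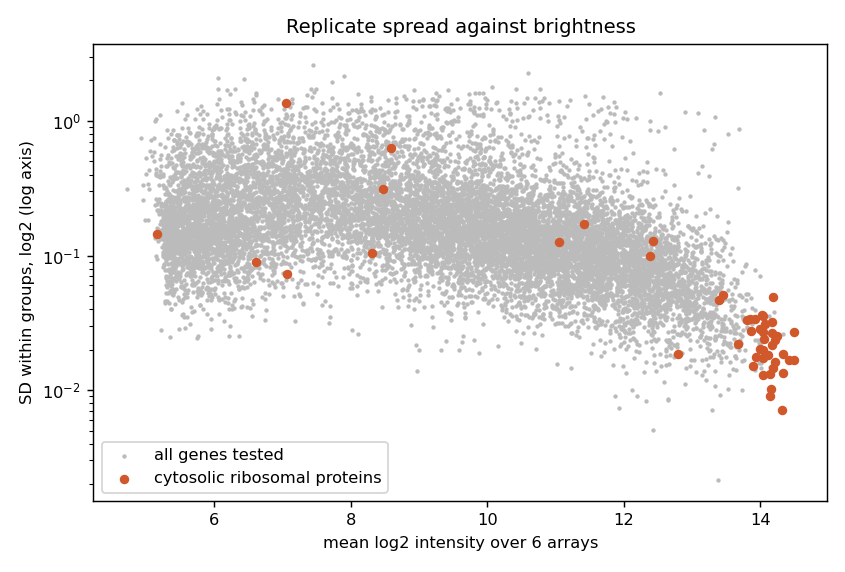
Standard deviation within groups (log axis) against mean log2 intensity over 6 arrays, for all 12837 genes tested in grey and the 49 ribosomal protein genes in orange. Most members lie at the lower right, bright and with little spread, and the dimmer members lie within the cloud of other genes.

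The proteins of the large subunit were measured by 22 subunit genes. None passed the test, and 18 of them were bright. The stalk, which recruits elongation factors, was read by Rplp0 and Rplp2. Rplp0 had log2 intensities of 14.13, 14.15 and 14.13 on the ICN2-negative arrays and 14.13, 14.13 and 14.15 on the ICN2-positive arrays. The groups overlapped completely, with a difference of -0.0020 ± 0.056 (difference ± SE, n = 3 per group, adjusted p = 0.985 in limma). Rplp2 stood at 14.49, 14.48 and 14.49 against 14.46, 14.50 and 14.50, and its groups overlapped as well (0.0050 ± 0.057, adjusted p = 0.962). Rpl11, which can leave the ribosome to bind the p53 regulator Mdm2, read 14.02, 14.07 and 14.03 against 14.00, 14.04 and 14.05.

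Rpl13a, which also takes part in an interferon-induced block on translation, had the smallest replicate spread of all members. Its values were 14.32, 14.33 and 14.32 in ICN2-negative cells and 14.32, 14.33 and 14.31 in ICN2-positive cells, with standard deviations of 0.0045 and 0.0089. Both groups had received polyIC, so this comparison does not show an effect of interferon. Rpl38, known for its part in translating Hox messages, differed by -0.0037 ± 0.057, and Rpl10a by -0.020 ± 0.065.

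On their brightest probe sets Rpl35, Rpl37a and Rpl27a, which lie in the large subunit, were lower in all 3 ICN2-positive arrays than in any ICN2-negative array, by very little. Rpl35 had 14.43, 14.45 and 14.44 in ICN2-negative cells and 14.40, 14.39 and 14.42 in ICN2-positive cells. The difference of -0.036 ± 0.057 did not pass (adjusted p = 0.716). The differences of Rpl37a and Rpl27a were -0.031 ± 0.057 and -0.020 ± 0.056, with adjusted p-values of 0.754 and 0.842 in limma. Another bright probe set of Rpl37a went the other way, also without overlap. It read 13.90, 13.90 and 13.89 in ICN2-negative cells and 13.94, 13.93 and 13.95 in ICN2-positive cells (0.045 ± 0.064).

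The proteins of the small subunit were measured by 20 subunit genes, of which none passed and 17 were bright. Rps19, the gene most often mutated in Diamond-Blackfan anaemia, had log2 intensities of 13.86, 13.86 and 13.84 in ICN2-negative cells and 13.82, 13.87 and 13.89 in ICN2-positive cells. Its groups overlapped, with a difference of 0.0037 ± 0.059 (95% interval -0.14 to 0.15, adjusted p = 0.973 in limma). Rps14 read 13.98, 14.04 and 14.00 against 13.97, 14.00 and 14.02, a difference of -0.011 ± 0.059. Rps24 and Rps26, which are also among the anaemia genes, differed by 0.026 ± 0.060 and -0.012 ± 0.057.

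Rps6, the substrate of the S6 kinases downstream of mTOR, was dimmer than most members. Its values were 12.80, 12.83 and 12.82 on the ICN2-negative arrays and 12.76, 12.79 and 12.75 on the ICN2-positive arrays. The groups did not overlap, and the difference of -0.047 ± 0.057 did not pass (adjusted p = 0.633). Rps15, which is needed for export of the pre-40S particle, had the largest difference among the bright members that was above zero, at 0.029 ± 0.060.

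Sex-linked members can be compared with the autosomal ones, since the groups differ in sex. Rps4x, a small-subunit gene on the X chromosome, had values of 13.82, 13.82 and 13.79 in the ICN2-negative cells, from females, and 13.76, 13.84 and 13.82 in the ICN2-positive cells, from males. The groups overlapped (-0.0033 ± 0.060, adjusted p = 0.977 in limma). Rpl39, the other X-linked member tested, was read only by a dim probe set, at 6.998, 7.10 and 7.20 against 7.02, 7.05 and 7.08 (-0.049 ± 0.075, adjusted p = 0.71). In contrast the Y-linked initiation factor gene Eif2s3y was at 3.25, 3.70 and 3.78 in ICN2-negative cells and at 11.17, 11.18 and 11.72 in ICN2-positive cells (adjusted p = 5.09e-04), and the labels give these groups opposite sexes. Its ICN2-negative values all lay below the 40th percentile of their arrays. Eif2s3y thus entered the test through the ICN2-positive group alone, so its p-value supports no call.

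**Figure D3:**
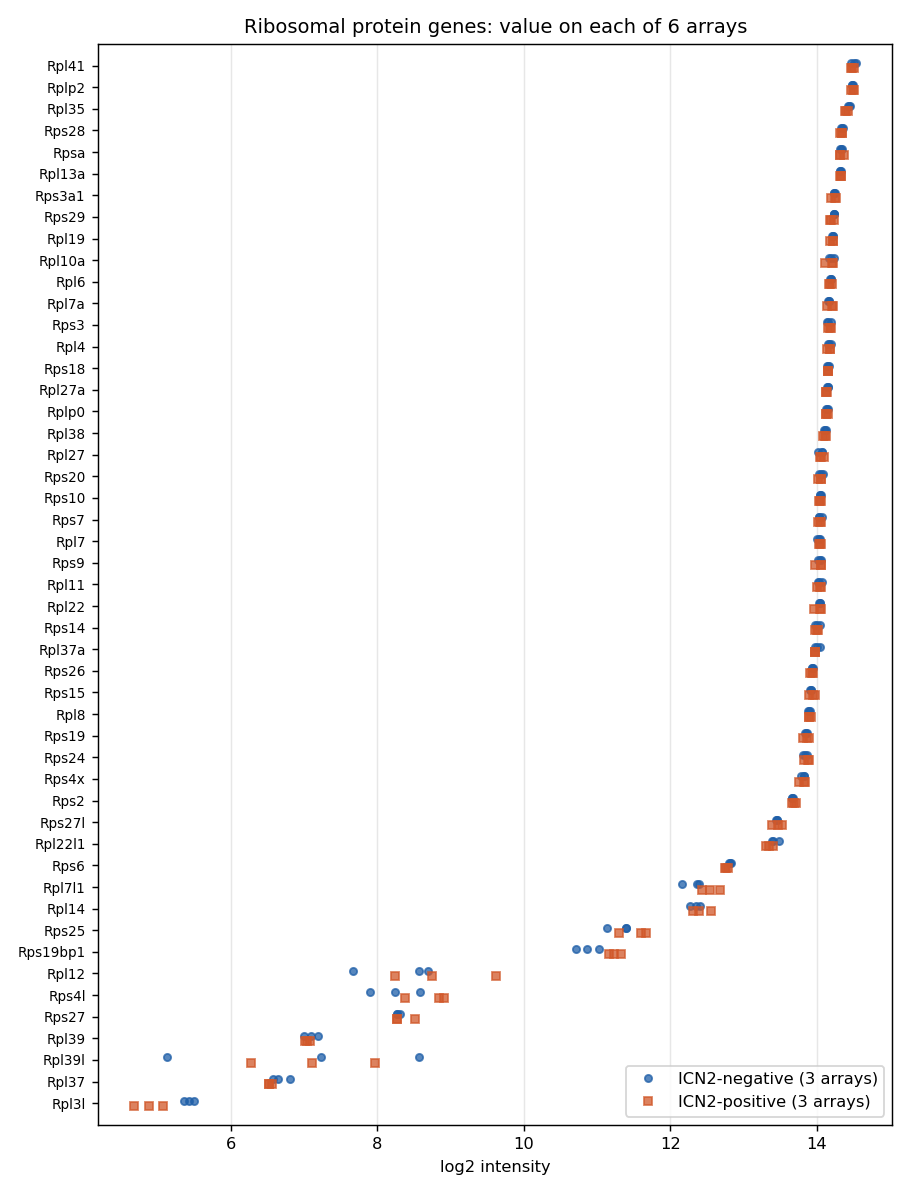
Log2 intensity of each of the 49 tested ribosomal protein genes on the 3 ICN2-negative arrays (blue circles) and the 3 ICN2-positive arrays (orange squares), ordered by mean. The points of a bright gene nearly coincide, while Rpl12, Rps4l, Rpl39l and Rpl3l at the lower end spread visibly.

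The dimmer members held all the larger differences. Dimness depends on the probe set as well as on the RNA, so a dim member need not be a gene of low expression. Of the 49, 12 had a mean log2 intensity of 13 or less, and their median size of difference was 0.18. Rpl12, which sits at the base of the stalk, differed by 0.56 ± 0.44 (adjusted p = 0.449 in limma), with values of 8.70, 8.57 and 7.67 in ICN2-negative cells and 9.63, 8.25 and 8.75 in ICN2-positive cells. The groups overlapped, the highest value came from ICN2-positive replicate 1 and the lowest from ICN2-negative replicate 3. The difference was 0.18 without the former array and 0.24 without the latter, and at most 0.87 with any single array left out. Rps25, which helps some viral messages to start translation, differed by 0.22 ± 0.13 with overlapping groups (11.39, 11.39 and 11.14 against 11.67, 11.30 and 11.60). Rpl37 was lower in every ICN2-positive array (6.58, 6.82 and 6.64 against 6.52, 6.57 and 6.52), by -0.14 ± 0.083, and did not pass (adjusted p = 0.315). Rpl14 and Rps27 differed by 0.081 ± 0.088 and 0.065 ± 0.090. With any single array left out, the difference of Rps25 ranged from 0.13 to 0.33, that of Rpl37 from -0.19 to -0.075 and that of Rpl14 from 0.014 (without ICN2-positive replicate 1) to 0.14. Rps16 was the only member not tested, since its only probe set that lists a single gene read 3.35 to 3.70 on all 6 arrays. Probe sets that list several genes were not used for these values.

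The smallest adjusted p-values among the members were those of a paralogue, Rpl3l, and a partner, Rps19bp1. Rpl3l, the heart and skeletal muscle counterpart of Rpl3, had values of 5.50, 5.37 and 5.44 in ICN2-negative cells and 4.69, 4.88 and 5.07 in ICN2-positive cells. The groups did not overlap, and the difference of -0.56 ± 0.11 had an adjusted p of 0.0586 in limma. All 3 ICN2-positive values lay below the 40th percentile of their arrays, which was 5.26 to 5.30, and the ICN2-negative values lay just above it. Rpl3l thus entered the test through the ICN2-negative group alone, a filter that favours a difference in this direction, so its p-values support no call. The adjusted p was 0.0473 when the spread was allowed to follow brightness, 0.0203 with array weights (difference -0.40), and 0.0589 to 0.181 with any single array left out.

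Rps19bp1, also known as Aros, a regulator of the deacetylase Sirt1, read 11.03, 10.72 and 10.86 in ICN2-negative cells and 11.33, 11.16 and 11.23 in ICN2-positive cells. Every ICN2-positive value was higher, with a difference of 0.37 ± 0.10 (adjusted p = 0.1 in limma). Rpl7l1, a nucleolar relative of Rpl7 that acts in ribosome assembly, read 12.37, 12.16 and 12.40 against 12.69, 12.55 and 12.43. Its ICN2-positive values were also all higher, by 0.24 ± 0.10, with an adjusted p of 0.201 in limma. Its other probe sets differed by 0.17 and 0.099, and on both of them ICN2-positive replicate 1 was the highest of the 6 arrays. Rps4l, an autosomal relative of Rps4x, differed by 0.47 ± 0.22 with overlapping groups (adjusted p = 0.239). With array weights, a fit that lowers the weight of arrays that deviate, Rps19bp1 and Rps4l passed as well (adjusted p = 0.0212 and 0.034), in a fit that called 3262 of all genes.

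Rpl39l, a paralogue of Rpl39 best known from testis, was the most variable member. Its ICN2-negative values were 8.57, 7.23 and 5.13 and its ICN2-positive values 7.12, 7.97 and 6.27. The spread of 1.73 (SD, n = 3) among the ICN2-negative arrays exceeded the difference of 0.14 ± 0.94.

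Pairs of paralogues were compared within each array, which asks whether they changed unequally. Rpl22, whose loss blocks the development of alpha-beta T cells, and Rpl22l1, which can replace it in the ribosome, are the pair with a known role in blood cells. Rpl22 read 14.03, 14.04 and 14.05 in ICN2-negative cells and 13.96, 14.06 and 14.04 in ICN2-positive cells. Rpl22l1 read 13.39, 13.48 and 13.40 against 13.31, 13.35 and 13.40, with overlapping groups. The log2 ratio of Rpl22l1 to Rpl22 was lower by -0.055 in ICN2-positive cells (two-sided exact permutation test, p = 0.2, adjusted p = 0.333 over 5 pairs). The ratio of Rps27l, a target of p53, to Rps27 differed by -0.053 (exact p = 0.7). That of Rpl7l1 to Rpl7 differed by 0.23 and that of Rps4l to Rps4x by 0.47 (exact p = 0.2 each), and that of Rpl39l to Rpl39 by 0.19 (exact p = 1). With 3 arrays against 3 this test cannot go below 0.1, so none of the 5 ratios could have passed, and the values do not show that the paralogues acted alike.

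Several genes were read by more than a single probe set, and the larger differences were on dim ones. Of the 49 genes, 23 had 54 further probe sets above the limit. None of these 54 passed when adjusted over all 27424 probe sets tested, against 2.65% of all probe sets; at an unadjusted p of 0.05 there were 3, against 24.3%. The 37 that lay within 3 log2 units of the brightest probe set of their gene differed by -0.058 to 0.17, with a median of -0.017. The 17 that lay more than 3 units lower, a limit chosen after the values were seen, differed by -0.15 to 1.02, with a median of 0.24, and 5 of them were above 0.5.

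Those 5 belonged to Rpl35, Rps24, Rpl37a, Rps9 and Rps10. The dim probe set of Rpl35 read 8.12, 7.49 and 7.57 in ICN2-negative cells and 9.21, 8.45 and 8.59 in ICN2-positive cells, a difference of 1.02 ± 0.26 (adjusted p = 0.0993 over probe sets in limma). The 5 bright probe sets of the same gene differed by -0.043 to -0.022. The dim probe set of Rps24 read 5.91, 5.72 and 5.36 against 6.46, 6.40 and 6.74 (0.87 ± 0.17, adjusted p = 0.0647), and that of Rpl37a 8.76, 8.57 and 8.38 against 9.77, 9.28 and 9.12 (0.82 ± 0.20, adjusted p = 0.0913). For these 3 genes the groups of the dim probe set did not overlap. Among all 17 dim probe sets, 4 had higher ICN2-positive values without overlap, against 19.7% of all probe sets. The groups of the dim probe set overlapped for Rps9 and Rps10, with differences of 0.77 ± 0.38 and 0.65 ± 0.28.

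The median of the 17 dim probe sets, as the distance from the ICN2-negative mean, was 0.34, 0.10 and 0.31 on ICN2-positive replicates 1, 2 and 3, and 0.18, 0.047 and -0.20 on ICN2-negative replicates 1, 2 and 3. For beta-actin, the 3' control probe set exceeded the 5' control by 1.01 log2 units on ICN2-positive replicate 1 and by 0.71 to 0.85 on the other 5 arrays. The same array was highest for Gapdh (0.73, against 0.63 to 0.66) and, by little, for pyruvate carboxylase (1.97, against 1.46 to 1.90). For the transferrin receptor it was at 2.92, within the 2.86 to 3.28 of the others. What parts of the transcripts the dim probe sets read was not determined, and the part of RNA quality in their values was not tested.

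**Figure D4:**
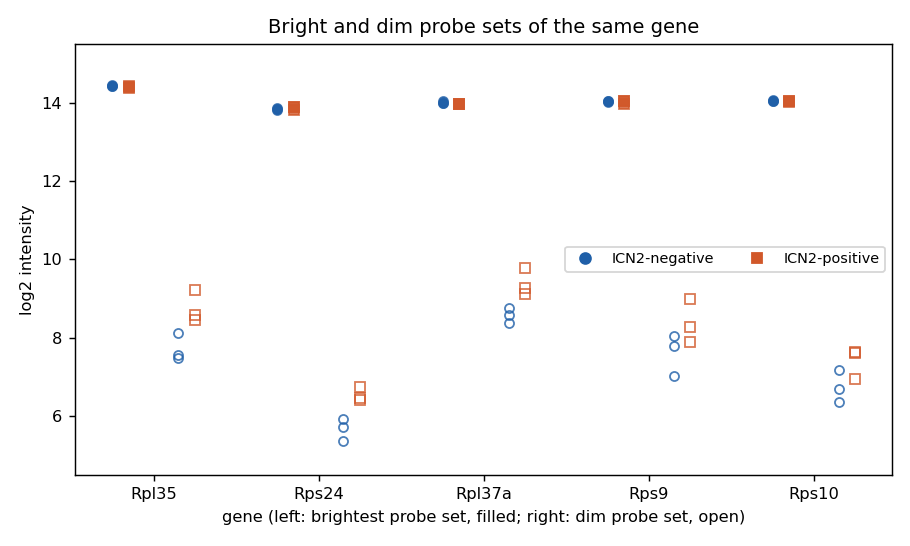
Log2 intensity on each array of the brightest probe set (filled) and the dim probe set with a difference above 0.5 (open) of 5 ribosomal protein genes, with ICN2-negative arrays as blue circles and ICN2-positive arrays as orange squares. The bright probe sets of the 2 groups nearly coincide around 14, with those of Rpl35 and Rpl37a very slightly lower in ICN2-positive cells. The means of the dim ones lie higher in ICN2-positive cells, without overlap of the arrays for Rpl35, Rps24 and Rpl37a.

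Ribosomal protein symbols listed together with pseudogenes or other genes were carried by 106 tested probe sets. None of these passed either in limma, with 4 at an unadjusted p of 0.05, against 24.3% of all probe sets. Their differences ran from -0.40 to 0.59 with a median of 0.0020. Their smallest adjusted p was 0.0953. Cross-reaction with pseudogenes, which are numerous for this family, cannot be separated from the genes in any of these probe sets.

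Among the 6 arrays, ICN2-positive replicate 1 stood apart, with correlations of 0.984 and 0.987 over all probe sets to the other ICN2-positive arrays, which correlated with each other at 0.995. It was also the lowest of the 6 arrays for 20 of the 37 bright members (54.1%), against 26.2% of all genes tested. The size of this shift was small: the median distance of the bright members from their own means was -0.023 on that array and -0.0026 to 0.015 on the others. Without it, none of the 49 members passed in limma, with 3 at an unadjusted p of 0.05, and the median difference was 0.0060. The median level of all 49 members was 13.98 on that array and 14.02 to 14.05 on the other 5.

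The gate of the sort was compared with its markers, and the mix of lineages with lists of marker genes. Kit read 10.15 to 10.86 over the 6 arrays, and Ly6a had no single-gene probe set to check Sca1. Of 6 lineage markers 4 were tested, and none passed in limma (2 at an unadjusted p of 0.05, against 27.4% of all genes). Cd3e, a chain of the T cell receptor complex, had group means of 5.60 in ICN2-negative and 6.95 in ICN2-positive cells, without overlap (1.35 ± 0.42, adjusted p = 0.116). Cd4 had means of 5.56 and 5.17, Cd8a of 6.04 and 6.21 and Ptprc, the pan-leukocyte antigen CD45, of 11.65 and 11.27, while Itgam and Cd5 did not reach the limit. Every ICN2-positive value of Cd4 lay below the 40th percentile of its array, so Cd4 entered the test through the ICN2-negative group alone. All 9 granulocyte-monocyte markers had lower values in every ICN2-positive array, against 16.9% of all genes, with none past the threshold, 3 at an unadjusted p of 0.05 in limma and a median difference of -1.51 (-0.57 without ICN2-positive replicate 1, where Csf3r, Ctsg, Elane, Gfi1 and Irf8 passed). The log2 of their summed linear intensities, to which the brightest markers add most, was 16.35 to 16.49 in ICN2-negative cells. It was 13.42 in ICN2-positive replicate 1 and at most 15.96 in that group. The 6 erythroid markers tested had a median difference of 0.10 (0.041 without ICN2-positive replicate 1). The log2 of their summed linear intensities was 15.24 to 15.32 against 15.10 to 15.35. None was past the threshold in limma and 1 was at an unadjusted p of 0.05. That gene was Slc4a1, the red cell anion exchanger, which had lower values in every ICN2-positive array (-2.67 ± 0.55, adjusted p = 0.0596). Of 10 mast cell and basophil markers 4 passed as higher (Il4, Mcpt1, Mcpt2 and Mcpt4), against 2.59% of all genes. Every ICN2-negative value of Mcpt1, Mcpt2 and Mcpt4 lay below the 40th percentile of its array. These genes thus entered the test through the ICN2-positive group alone, a filter that favours a rise, so their p-values support no call. Of the markers that did not pass, Fcer1a, Mcpt8, Cpa3 and Ms4a2 had negative differences of -1.35, -0.39, -0.32 and -0.027, with overlapping groups. Cma1 (0.82 ± 0.27, without overlap) and Gata2 (0.24 ± 0.25, overlapping) had positive ones. Cpa3 read 9.90 on ICN2-positive replicate 1 and 11.96 and 11.80 on replicates 2 and 3, against 11.14 to 11.76 in ICN2-negative cells. Ms4a2 read 8.74, 11.77 and 11.45 on these arrays, against 10.20 to 10.92. Without ICN2-positive replicate 1, Mcpt8 passed as higher. All 7 B cell markers had negative differences (median -2.36, 5 without overlap), and 1 of them, Dntt, fell, against 1.78% of all genes. Without that array Dntt did not pass, Cd79b did, and the median was -2.04. None of 6 T cell markers passed in limma (3 at an unadjusted p of 0.05, median 1.36), and without that array Cd7 did. None of 5 megakaryocyte markers passed in limma (1 at an unadjusted p of 0.05), and their median of -0.22 was 0.00078 without that array. The part of these cell types in the ribosomal protein values was not tested. In sorted bulk cells, a changed share of a cell type and a changed amount per cell cannot be told apart, and the arrays were normalized to a common distribution, so a change of total RNA per cell would not be seen.

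The mitochondrial ribosomal proteins, encoded in the nucleus for the ribosome of the organelle, lay mostly above zero. None of 76 tested passed in limma, with 17 at an unadjusted p of 0.05, against 27.4% of all genes. The median difference was 0.15 (0.11 without ICN2-positive replicate 1). In 45 of 76 (59.2%) every ICN2-positive value was higher than every ICN2-negative one, against 20.7% of all genes, and 1 gene was lower in this way. Mrps27, a small-subunit protein of that ribosome, read 10.24, 9.75 and 9.99 against 10.71, 10.41 and 10.45 (0.53 ± 0.15, adjusted p = 0.106). Mrpl49, of its large subunit, read 11.08, 10.93 and 11.02 against 11.42, 11.24 and 11.29 (0.30 ± 0.080, adjusted p = 0.0942). The difference between the mitochondrial and cytosolic sets was not tested.

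**Figure D5:**
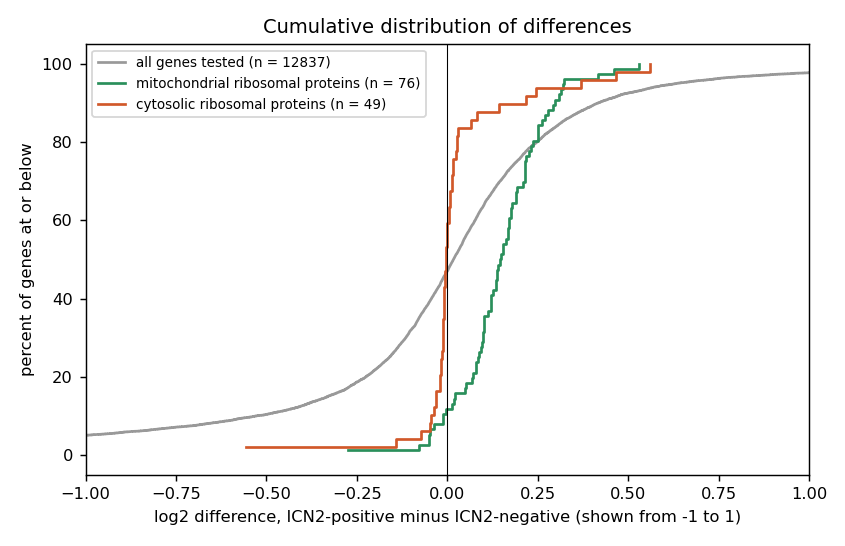
Cumulative share of genes (percent) against the log2 difference, ICN2-positive minus ICN2-negative, for all genes tested (grey, n = 12837), 76 mitochondrial ribosomal protein genes (green) and 49 cytosolic ones (orange). The cytosolic curve climbs steeply at zero, and most of the mitochondrial curve lies to its right, around a median of 0.15.

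Factors that work on the ribosome were read from lists of their own. Of 45 translation initiation genes only the Y-linked Eif2s3y passed (median 0.061), and it entered the test through the ICN2-positive group alone. The groups did not overlap for 16 of the 45 that were higher and 2 that were lower, against 20.7% and 16.9% of all genes. Eif2b1, part of the exchange factor that recharges eIF2, differed by 0.44 ± 0.093 (adjusted p = 0.0611). None of 13 elongation and termination genes passed in limma (2 at an unadjusted p of 0.05, against 27.4% of all genes). Their median was 0.053, with the release factor gene Gspt1 at 0.39 ± 0.11 (adjusted p = 0.0999). None of 12 other genes known for TOP transcripts passed, none reached an unadjusted p of 0.05 in limma, and their median was -0.011 (0.015 without ICN2-positive replicate 1). Npm1, a nucleolar chaperone, had the largest difference above zero among these 12, at 0.082 ± 0.058.

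Among 20 genes of the growth pathway that acts on ribosomal protein messages, Sesn1, a p53-induced inhibitor of mTOR, fell from 10.89, 11.21 and 11.06 to 10.20, 10.36 and 10.40, without overlap (-0.73 ± 0.11, 1.66-fold, adjusted p = 0.0297 in limma). The other 19 did not pass, although without ICN2-positive replicate 1 Deptor, an inhibitor within the mTOR complexes, passed as higher beside Sesn1. An unadjusted p under 0.05 was found for 8 of the 20, against 27.4% of all genes, and the median difference was 0.098. Larp1, which binds the TOP tract and holds these messages back, read 12.43, 12.32 and 12.34 against 12.61, 12.63 and 12.60, a difference of 0.25 ± 0.063 (adjusted p = 0.0842). None of 19 genes for ribosomal protein chaperones, assembly and p53 surveillance passed in limma (4 at an unadjusted p of 0.05, against 27.4% of all genes). Their median difference was 0.14, and 0.077 without ICN2-positive replicate 1. Nob1, the nuclease that finishes 18S ribosomal RNA, came closest, at 0.42 ± 0.083 (adjusted p = 0.0555).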

How the data were processed

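Affymetrix arrays were hybridized with cDNA from 5 ng of total RNA per sample, amplified with an Ovation kit, per the labels' protocols. The deposited table held 1 linear intensity per probe set and array (45101 probe sets, 5.13 to 24678.5), made by the authors with RMA per the submitters' processing notes; its version, and the chip definition, are not given in the sources used here. Scanner files were not used here. The number of arrays limits the precision.

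Log2 was taken here. Genes were named from the platform annotation where a probe set lists 1 gene, and read by the probe set of highest mean over 6 arrays. Probe sets above the 40th percentile of their array on at least 3 arrays were kept (12837 genes). limma 3.58.1 in R 4.3.3 (lmFit, eBayes, no covariate) was fitted on all genes, with Benjamini-Hochberg adjustment, the source of all adjusted p-values per gene. The fit was tested on simulated data (12837 genes, 200 changed), where it recovered 68.4% of changes of 1 and 91.4% of changes of 2 on the log2 scale. Smaller changes, such as those of the members, were not simulated. Paralogue ratios had an exact permutation test. Members, lists and tests were chosen with earlier results of these data known. Named genes were the members past the threshold, the 10 largest differences each way, paralogue pairs, stalk genes, X-linked and untested members, and up to 4 genes of smallest p per other list; further members, the dim probe sets and marker genes were named after their values were seen.

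Deviations from the group means correlated at 0.18, 0.14 and 0.094 between same-numbered arrays and at -0.22 to 0.16 between differently numbered ones. Whether same-numbered arrays form pairs was not determined, and the main fit did not pair them. Alternatives covered the filter, normalization, variance model, array weights, probe set choice, replicate number and each array left out.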

Additional observations from a re-analysis of the deposited data

How the results depend on the processing

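No ribosomal protein gene was called without a dim-probe filter, with a stricter filter, with median-centred or requantiled arrays, with the mean of probe sets, without _x_at and _s_at probe sets, with robust eBayes, with the replicate number as a block, or with any single array left out (0 higher and 0 lower). With a brightness trend in eBayes 1 was lower (Rpl3l), with array weights 2 were higher and 1 lower, and at a threshold of 0.10 1 was lower. The median difference stayed between -0.011 and 0.0060 in all settings run. Over all genes the 560 calls became 847 with the trend, 3262 with array weights and 340 with the replicate block, and 99 to 768 with 1 array left out; the cause was not tested. The block changed no member's call.

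Signs of members that never passed turned in some settings. Requantiled arrays gave Rps4x at 0.026 and Rplp2 at -0.012. The mean of probe sets gave Rpl37a at 0.28 and Rpl35 at 0.14, since it includes their dim probe sets. Without _x_at and _s_at probe sets, Rpl37a was at 0.045 and Rpl22 at 0.0051. Array weights gave Rpl39l at -0.036, Rpl14 at -0.015, Rpl10a at 0.017, Rpl22 at 0.00021, Rps4x at 0.016 and Rplp0 at 0.012. With 1 array left out, Rps4x ranged from -0.020 to 0.020, Rpl10a from -0.038 to 0.014, Rplp0 from -0.010 to 0.0048, Rplp2 from -0.0026 to 0.018, Rpl22 from -0.036 to 0.010, Rpl39 from -0.098 to 0.0016, Rpl39l from -0.78 to 0.94, Rps27 from -0.018 to 0.11 and Rps27l from -0.020 to 0.050. The ratio of Rpl39l to Rpl39 then ranged from -0.78 to 1.04, Rps27l to Rps27 from -0.13 to 0.025, Rpl22l1 to Rpl22 from -0.070 to -0.029, Rpl7l1 to Rpl7 from 0.15 to 0.29 and Rps4l to Rps4x from 0.30 to 0.63.

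The stricter filter left 46 members and gave no value for Rpl3l, Rpl37, Rpl39 or the ratio of Rpl39l to Rpl39.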
